A study of Drosophila melanogaster with 30 samples.

Results

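Male wing imaginal discs that carried histone H4 with lysine 16 replaced by arginine (H4K16R) were compared with male discs that carried wild-type histone genes (HWT). The comparison is held in a table of 11505 genomic entries, which is every entry of the male RNA comparison out of 22280 entries in the male and female RNA tables together. It rests on 6 of the 30 libraries of the series, 3 per genotype, each made from 30 discs. All larvae, in both genotypes, lacked their endogenous replication-dependent histone genes (ΔHisC, twi-GAL4 over ΔHisC, UAS-2xEYFP) and lived on a transgenic histone array, either HWT or H4K16R. Mutant larvae were picked by fluorescence, taken as newly wandering third-instar animals and dissected, and the stranded RNA libraries were made after removal of ribosomal RNA, with ERCC spike-ins. The labels do not tie the libraries to separate crosses or animals, so every p-value measures the spread between these libraries.

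Males of Drosophila have a lone X chromosome, and the male-specific lethal (MSL) complex raises its output. The complex spreads along the male X with the roX noncoding RNAs, and its acetyltransferase, encoded by mof, acetylates lysine 16 of histone H4. Arginine keeps the positive charge of lysine and cannot be acetylated, so histone H4 made from the H4K16R array cannot carry this mark. The same residue is acetylated on autosomes and in females, among others by MOF in the non-specific lethal (NSL) complex. The wing disc itself is a sac of proliferating epithelium, with muscle precursors, trachea and a few sensory neurons attached, from which the adult wing and notum form.

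The authors' deposited table gives, per entry, the log2 fold change with its adjusted p-value and no value per library, so levels in each sample cannot be shown here. A positive value is read as higher in H4K16R, although the table does not state the numerator. An entry was called when its adjusted p was under 0.05. Over all entries, 616 were called higher (5.35%) and 1181 lower (10.3%) by the authors' deposited table. Of the 11505 entries, 9404 matched exactly 1 RefSeq gene by a reciprocal overlap above 0.9 and gave 9397 named genes. These comprise 7761 genes on chromosomes 2 and 3, 1542 on the X, 86 on chromosome 4 and 8 on the Y. Genes that mark the wing disc (vg, nub, ap, wg and Antp) all had an entry in the authors' deposited table, with log2 fold changes of 0.03, -0.09, -0.26, 0.10 and -0.22. In bulk discs, fewer cells of a type and less RNA per cell cannot be told apart.

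Named X-linked genes were shifted as a body, and their spread around the shift was no wider than that of autosomal genes. Of 1542 X-linked genes, 725 were called lower (47%) and 14 higher (0.908%) by the authors' deposited table. Their median log2 fold change was -0.44 with an interquartile range from -0.62 to -0.23, a width of 0.39, while autosomal genes had a median of 0.08 and a width of 0.40, in the authors' deposited table. The difference of the medians, -0.51 on the log2 scale, is a ratio of 0.700. The autosomal arms were alike, with medians of 0.07 on 2L and 2R and 0.08 on 3L and 3R in the authors' deposited table. Where the error was small, nearly all X-linked genes were below 0. Of 584 X-linked genes with a recovered standard error of at most 0.15, 565 (96.7%) had a log2 fold change below 0 in the authors' deposited table, against 38.4% of 3432 autosomal genes with errors as small. The other 19 X-linked genes were at or above 0, and 10 of them spanned over 30000 bases, as did 80 of the 584. They included the netrin guidance genes NetA and NetB at 0.02 and 0.12, the transcription factor gene mamo at 0.03 and the integrin gene if at 0.06 in the authors' deposited table, none of which was called.

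**Figure D1:**
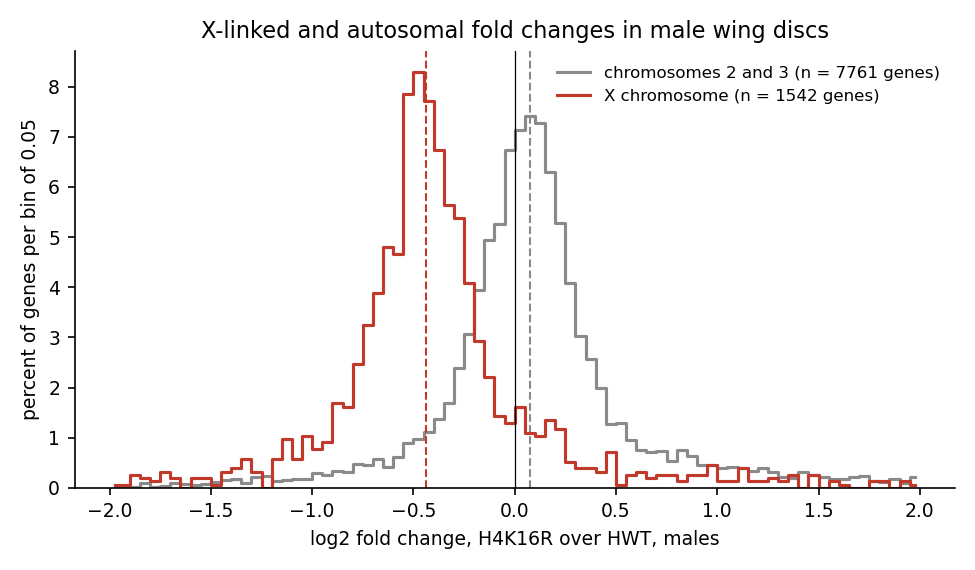
Distribution of male log2 fold changes (H4K16R over HWT) as the percent of named genes in bins of 0.05, for 1542 X-linked genes (red) and 7761 genes of chromosomes 2 and 3 (grey), with dashed lines at the medians of -0.44 and 0.08. The X-linked curve is moved to the left with a similar width, and 37 X-linked and 241 autosomal genes lie outside the axis, which ends at 2 in each direction.

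The median X-linked shift was smallest in the longest genes and differed little between groups by replication timing. By the authors' deposited table, genes of the X that spanned over 3000 and up to 10000 bases had a median of -0.50 with 93.3% below 0, and the 129 genes over 30000 bases had -0.26, of which 66.7% were below 0. Shorter genes were in between, at -0.37 up to 500 bases and -0.48 from over 1200 to 3000 bases, in the authors' deposited table. Autosomal medians over the same lengths ran from 0.11 for the shortest to -0.02 for the longest genes, and among the 497 longest autosomal genes 26 were called higher and 53 lower, by the authors' deposited table. Long entries hold other entries within them and share their reads, so the part of overlapping genes in this pattern was not tested. By the HWT male replication timing at each gene, the X-linked medians of 5 groups of equal size from latest to earliest were -0.42, -0.44, -0.40, -0.47 and -0.46 in the authors' deposited table. The H4K16R minus HWT timing difference had a median of -0.03 at X-linked genes called lower and -0.02 at X-linked genes not called, in the authors' deposited tables. On autosomes the same 5 groups held 87, 84, 70, 103 and 122 genes called higher and 64, 46, 53, 55 and 44 called lower by the authors' deposited table, with no steady order.

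Large effects on the X went beyond the shared shift in a few genes. The lowest adjusted p among lower X-linked genes belonged to CG9782, at -2.21 (edgeR adjusted p = 6.61e-10, X:16615028-16621589, dm6) in the authors' deposited table. The nested genes S6KL, a protein kinase gene, and bnb had -1.72 and -1.82 in the authors' deposited table, and since bnb lies inside S6KL their reads cannot be told apart. The calcium channel gene cac had -2.24, the chitin-binding protein gene obst-A -1.30 and the pan-neuronal RNA-binding protein gene elav -1.03 in the authors' deposited table. The spindle orientation gene mud had -0.92, the splicing regulator su(w[a]) -0.83, orion, a signal for pruning of neurons, -1.66, and CG2145 -2.34, in the authors' deposited table. Of the 725 lower X-linked genes, 302 (41.7%) had a decrease under 0.5 and 58 (8%) a decrease of at least 1 on the log2 scale, in the authors' deposited table.

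There were 14 X-linked genes called higher, which ran against their chromosome. CG15784 (X:5429571-5432526, dm6) rose by 4.02 (edgeR adjusted p = 1.3e-13), the smallest adjusted p of any named gene in the authors' deposited table. Its neighbour lncRNA:CR45517 had 1.33 in the authors' deposited table. Both JAK/STAT ligand genes upd3 and upd1, which lie close together on the X, were higher, with 2.42 (adjusted p = 0.00569) and 0.65 (adjusted p = 0.0495), by the authors' deposited table. With all values moved so that the median of chromosomes 2 and 3 was 0, called recentred values here, upd3 passed and upd1 did not (adjusted p = 0.0890). The third ligand gene of that cluster, upd2, had 3.88 and did not pass (adjusted p = 0.0692) by the authors' deposited table. The pigmentation gene y had 0.94, the nucleotidase gene Nt5b 0.63, the endocytic receptor gene Cubn 0.60 and the cell adhesion gene kirre 0.31 in the authors' deposited table. The BMP antagonist gene sog had 0.23, lncRNA:CR43264 0.96, CG15765, in which it lies, 0.84, and CG5921, CG3556 and CG5966 1.13, 1.04 and 0.60, in the authors' deposited table.

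Many protein assemblies draw subunits from the X and from autosomes, and their subunits followed the chromosome. Lists of 8 assemblies held 48 measured X-linked and 265 autosomal genes, chromosome 4 included. Of the X-linked subunit genes 31 were called lower (64.6%, beside 47% of all X-linked genes) and 0 higher, with a median of -0.39 and 47 of 48 below 0, in the authors' deposited table. Of the autosomal ones 38 were called higher (14.3%) and 1 lower, with a median of 0.12, by the authors' deposited table. The same table calls 466 of the 7761 genes of chromosomes 2 and 3 higher (6%) and 262 lower (3.38%). The autosomal part of this pattern was small, and its counts depended on where 0 was set. With recentred values 18 of the 265 autosomal subunit genes were called higher and 6 lower, and 38 X-linked ones lower. The same setting called 266 of the 7761 genes of chromosomes 2 and 3 higher and 534 lower, so the background moved too.

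Genes of the cytosolic ribosome had the smallest autosomal median of these assemblies. Of 12 X-linked genes 9 were lower, among them RpS15Aa at -0.43, RpS5a at -0.41, RpS6 at -0.40 and RpL35 at -0.39, in the authors' deposited table. Of 61 autosomal ones 4 were higher, among them RpS16 at 0.36 and the stalk protein gene RpLP1 at 0.39, with a list median of 0.05, by the authors' deposited table. With recentred values the autosomal count was 2 higher and 4 lower. In the mitochondrial ribosome 4 of 10 X-linked genes were lower, with mRpL14 at -1.01, and 3 of 56 autosomal ones higher, with mRpS18B at 0.83, in the authors' deposited table. Oxidative phosphorylation had 4 of 9 X-linked genes lower, among them the cytochrome oxidase gene COX6B at -0.76 and the complex I gene ND-75 at -0.60, in the authors' deposited table. Its autosomal members had 4 of 53 higher, with the ATP synthase gene ATPsynCF6 at 0.36, in the authors' deposited table. This share is close to the 6% of all autosomal genes, and with recentred values 0 of the 53 were called. The recentred count for the mitochondrial ribosome was 2 higher and 1 lower.

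In the proteasome, the X-linked ATPase genes Rpt3 and Rpt6 and the core gene Prosalpha4 fell, by 0.62, 0.43 and 0.39, and 5 of 25 autosomal genes rose, led by the catalytic subunit gene Prosbeta5 at 0.38, in the authors' deposited table. The chaperonin CCT, a ring of 8 kinds of subunit, had both X-linked genes lower (CCT6 at -0.38, CCT2 at -0.33) and 3 of 6 autosomal genes higher (CCT4 at 0.26, CCT1 at 0.24, CCT8 at 0.23) in the authors' deposited table. Among cytosolic aminoacyl-tRNA synthetases, the enzymes that charge tRNAs, all 13 autosomal genes were above 0 and 6 of them were called higher, led by AlaRS at 0.53 and by MetRS and TrpRS at 0.48, in the authors' deposited table. X-linked ArgRS and LysRS fell by 0.52 and 0.37 in the authors' deposited table. Translation initiation factors had 4 of 5 X-linked genes lower, among them eIF4H1 at -0.72 and eIF2Bbeta at -0.63, and 5 of 30 autosomal ones higher, among them the ribosome anti-association factor eIF6 at 0.72 and eIF2beta at 0.45, in the authors' deposited table. With recentred values the autosomal genes called higher were 3 in the proteasome, 4 among the synthetases and 3 among the initiation factors, and 0 in the chaperonin, where CCT4, CCT1 and CCT8 all lost their calls (adjusted p of 0.165, 0.181 and 0.242).

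Nuclear pore and lamina genes had the most autosomal calls. Of 21 autosomal members 8 were higher, among them the pore scaffold genes Nup107 at 0.40 and Nup75 at 0.41 and the cytoplasmic filament gene Nup358 at 0.32, in the authors' deposited table. With recentred values 4 were higher and 1 lower. The lamin gene LamC was the exception, at -0.67, in the authors' deposited table. X-linked Nup153, Nup205 and Nup93-1 fell by 0.44, 0.51 and 0.53 in the authors' deposited table. In females the medians over the 8 assemblies were 0.01 for the X-linked and 0.06 for the autosomal genes in the authors' deposited table. A z test of the male minus female difference called 16 of 45 X-linked subunit genes lower in males, beside 25.9% of all X-linked genes. It called 9 of 251 autosomal ones higher, beside 2.46% of all autosomal genes, a share close to the background.

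**Figure D2:**
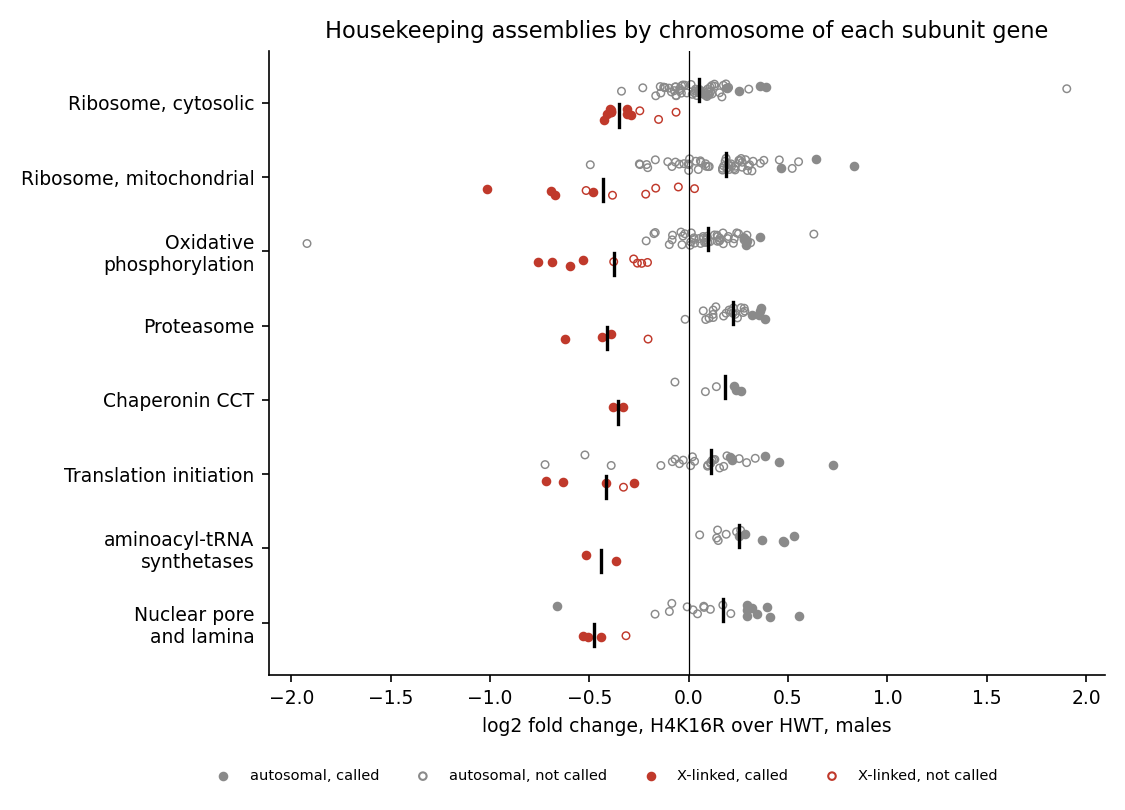
Male log2 fold change (H4K16R over HWT) of each measured subunit gene of 8 assemblies, autosomal genes in grey (chromosome 4 included) and X-linked genes in red, filled where the adjusted p was under 0.05, with black bars at the medians. The X-linked medians lie between -0.35 and -0.48 and the autosomal ones between 0.05 and 0.25.

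On chromosomes 2 and 3 most called changes were small. Among 466 higher genes the median was 0.45, 265 (56.9%) were under 0.5, 99 were at least 1 and 16 at least 4 on the log2 scale, in the authors' deposited table. Among 262 lower genes the median was -0.46, and 140 (53.4%) were a decrease under 0.5, in the authors' deposited table. The balance of higher and lower genes turned over with the centring. With the median of chromosomes 2 and 3 set to 0, 266 genes were called higher and 534 lower. Genes called before recentring could not change sign, since the smallest called increase was 0.19 and the shift 0.08.

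Among higher autosomal genes, Xrp1 (3R:18914968-18926989, dm6), a bZIP transcription factor gene, had the smallest adjusted p and rose by 1.54 (edgeR adjusted p = 9.3e-11) by the authors' deposited table. The elongation factor gene eEF1alpha2 (3R:31738468-31743306) had 2.25 (adjusted p = 6.66e-10), and ple (3L:6713356-6719525), which encodes tyrosine hydroxylase, the enzyme of dopamine synthesis, had 1.96 (adjusted p = 1.1e-09), by the authors' deposited table. On chromosome 4 the synaptic vesicle priming gene unc-13 (4:867824-912331) had 1.31, and CG3008 (2L:4883298-4885669) 1.71, in the authors' deposited table. The amino acid transporter gene path rose by 1.01, the growth factor gene Pvf2, a ligand of the PDGF and VEGF receptor family, by 1.05, and the mitochondrial protease gene Afg3l2 by 0.83, in the authors' deposited table. The cytochrome P450 gene Cyp6d2 had 2.32, the ionotropic receptor gene Ir41a 2.14, and Tom, a Bearded family gene that limits Notch signalling, 0.81, in the authors' deposited table. The gene sick had 1.43 and lncRNA:CR33938, CG2017 and CG4382 had 1.85, 1.15 and 1.12 in the authors' deposited table.

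The sick entry and the spliceosomal RNA genes inside it were measured on the same bases. The gene sick spans 2L:19796365-19958424 and holds 5 small nuclear RNA entries, of which snRNA:U5:38ABb had 6.86, snRNA:U2:38ABa 6.68 and snRNA:U2:38ABb 4.66, all called, in the authors' deposited table. These RNA genes have near-identical copies elsewhere, and no source used here states whether the counting used strand, so none of these values can be given to 1 gene. Of 14 measured small nuclear RNA genes, 3 were called higher, all inside sick, and snRNA:U1:82Eb was lower at -1.85, in the authors' deposited table.

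Of the lower autosomal genes, CG31997 on chromosome 4 (4:154654-156060) had -1.41 and the smallest adjusted p (edgeR, 5.75e-09) by the authors' deposited table. The gene ana (2R:9062295-9077554), which encodes a glycoprotein secreted by glia, had -1.50, the serpin gene Spn77Ba (3L:20317190-20320116) -1.20 and the growth factor gene miple1 -1.36, in the authors' deposited table. The odorant-binding protein gene Obp99b had -2.48, the neprilysin protease gene Nep2 -1.37 and the lysosomal mannosidase gene LManII -1.42 in the authors' deposited table. Genes known by number made up most of the rest, with CG34166 at -2.01, CG42233 at -1.73, CG31875 at -1.69, CG15905 at -1.47, CG44245 at -0.98, CG40160 at -0.81 and CG5151 at -0.70 in the authors' deposited table. The antisense gene asRNA:CR43481 had -0.65 in the authors' deposited table.

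Stress response genes on autosomes moved in several small groups. In the list of p53, Xrp1 and cell death genes, 8 of 20 autosomal members were higher and 3 lower, with a median of 0.15, by the authors' deposited table. All genes of chromosomes 2 and 3 had shares of 6% and 3.38%. With recentred values 6 of the 20 were higher and 3 lower. The gene p53 itself had 0.01 and was not called in the authors' deposited table. The caspase gene Dronc had 0.63, the apoptosome gene Dark 0.32, the caspase inhibitor gene Diap1 0.29 and the ribonucleotide reductase gene RnrL 0.22 in the authors' deposited table, so that an activator and an inhibitor of caspases were both higher. The lower members included chrb, a stress-induced inhibitor of TOR, at -0.47, and the cell death activator gene rpr, at -0.92, in the authors' deposited table. Xrp1 differed from its female value of 0.31 (z test, adjusted p = 1.81e-05), as did chrb from its female value of 0.35 (adjusted p = 3.39e-05). The double-strand break repair genes Ku80 and Irbp and the Xrp1 partner gene Irbp18 had 1.31, 1.10 and 1.08 in the authors' deposited table.

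Kinases of the integrated stress response and the unfolded protein response rose together. Of 15 autosomal genes of the ATF4 and unfolded protein response 5 were higher and 0 lower, with a median of 0.25, by the authors' deposited table. The shares of all genes of chromosomes 2 and 3 were 6% and 3.38%. The endoplasmic reticulum stress sensors Ire1 and PEK had 0.52 and 0.37, the amino acid sensor Gcn2 0.35, crc, which encodes the fly ATF4, 0.25, and the pseudokinase gene trbl 0.49, in the authors' deposited table. With recentred values 2 of these 15 genes were called higher. Among heat shock and chaperone genes 5 of 20 autosomal members were higher and 2 lower, by the authors' deposited table. The constitutive chaperone gene Hsc70-4 had 0.41, its mitochondrial relative Hsc70-5 0.33 and the heat shock factor gene Hsf 0.37 in the authors' deposited table. Hsp23 and l(2)efl, small heat shock protein genes, had -0.42 and -4.15, the latter with a recovered standard error of 1.47, in the authors' deposited table. Oxidative stress genes had 2 of 15 autosomal members higher, the autophagy receptor gene ref(2)P at 0.51 and the peroxiredoxin gene Prx3 at 0.46, in the authors' deposited table, and 1 higher and 1 lower with recentred values.

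**Figure D3:**
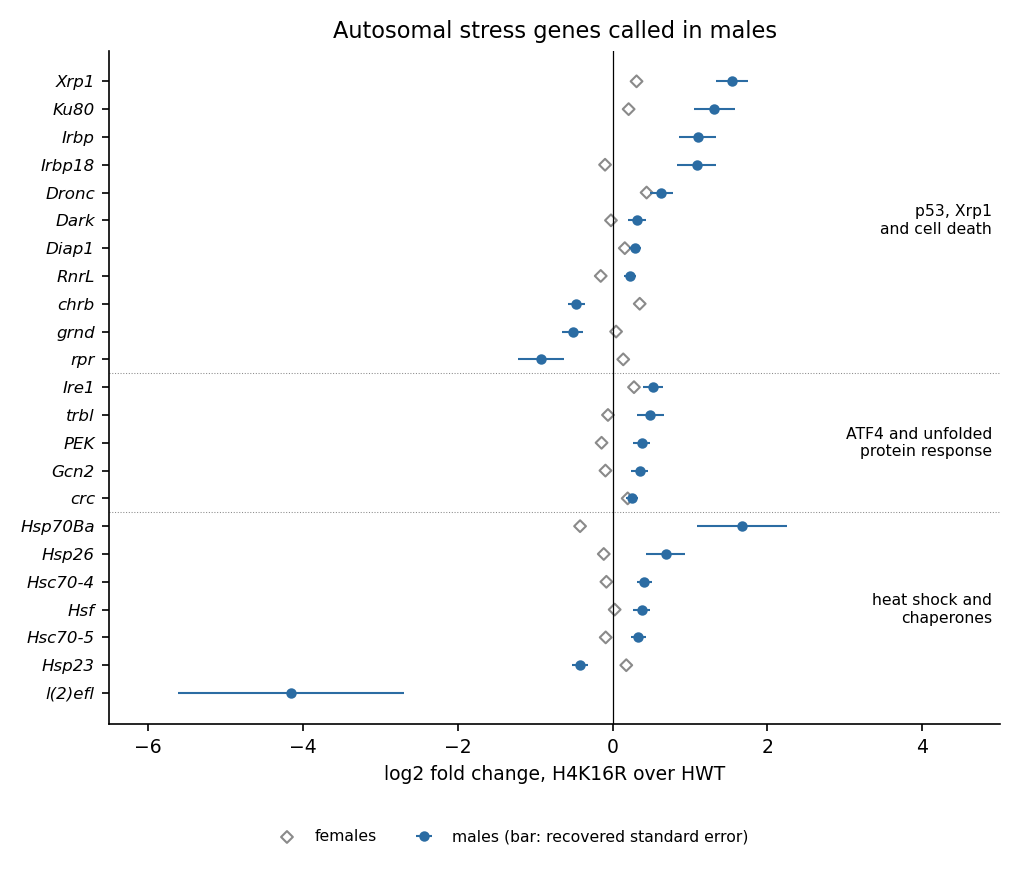
Log2 fold change (H4K16R over HWT) of the 23 autosomal genes of 3 stress lists that were called in males, for males (blue, with the recovered standard error) and, where measured, females (open grey diamonds). Male values run from 1.67 for Hsp70Ba, a gene with near-identical copies, to -4.15 for l(2)efl. The measured female values lie nearer to 0 than the male ones, which the choice of genes by their male call favours.

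DNA repair genes divided by chromosome. On autosomes 4 of 26 were higher and 1 lower, namely the translesion polymerase gene PolZ1 at 0.80, the excision repair gene Xpc at 0.54, the break repair genes mre11 and rad50 at 0.47 and 0.29, and the checkpoint adaptor gene Claspin at -0.45, in the authors' deposited table. All 4 higher genes also differed between the sexes, with female values from -0.39 to -0.10 (z test, adjusted p of 6.63e-04 for PolZ1 and 0.00237 for rad50). Of all genes of chromosomes 2 and 3, 6% were higher and 3.38% lower. With recentred values 3 of the 26 were higher and 1 lower, and rad50 was no longer called (adjusted p = 0.163). On the X 3 of 5 were lower, beside 47% of all X-linked genes, by the authors' deposited table. The ATR kinase gene mei-41, mus101 and Xpac fell by 0.66, 0.61 and 0.52 in the authors' deposited table. Immune effector genes, which include antimicrobial peptide and peptidoglycan receptor genes, had 0 calls among 13 members and a median of -0.25 by the authors' deposited table.

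The JNK and JAK/STAT lists held X-linked genes on both sides. Of 6 X-linked JNK and wound response genes 2 were higher, the ligand genes upd3 and upd1, and 3 lower, the receptor gene dome at -0.75, the JNK kinase gene hep at -0.55 and the Janus kinase gene hop at -0.50, in the authors' deposited table. Among the 16 autosomal members scaf, a JNK target, had 0.55, the JAK/STAT feedback inhibitor gene Socs36E 0.37 and the filamin gene cher -0.49 in the authors' deposited table. The other 13 were not called. The transcription factor gene Stat92E had -0.06 and was not called in the authors' deposited table.

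Among histone modifier genes, the acetyltransferase gene Gcn5 on 3L rose by 0.88 (edgeR adjusted p = 1.59e-05) by the authors' deposited table, against -0.09 in females (z test, adjusted p = 3.82e-04). It was the 1 called gene of 9 autosomal acetyltransferase and deacetylase genes, and its entry overlaps another. Of 5 X-linked ones, 4 fell, namely HDAC6 by 0.90, the CBP acetyltransferase gene nej by 0.53, Tip60 by 0.42 and HDAC4 by 0.35, in the authors' deposited table. The fifth, the sirtuin gene Sirt4, had 0.89 and was not called (adjusted p = 0.23) by the authors' deposited table, in which 47% of all X-linked genes were lower. In the NSL complex, the X-linked wds had -0.42, MBD-R2 0.28 (not called with recentred values) and the other 5 genes between 0.09 and 0.19, not called, in the authors' deposited table. Histone supply and replacement histone genes had 0 calls among 16 autosomal members, and 3 of 4 X-linked ones fell, among them the histone locus body gene mxc at -0.69 and the replacement histone gene His3.3B at -0.48, in the authors' deposited table. In the MSL list the X-linked mof, roX1 and roX2 were lower and 0 of 6 autosomal genes were called in the authors' deposited table.

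Replication and cell cycle genes on autosomes were near 0. Origin licensing and firing had 0 calls among 14 autosomal genes with a median of 0.01, by the authors' deposited table. Of its 6 X-linked genes 5 fell, with a median of -0.67, beside 47% lower and a median of -0.44 for all X-linked genes, in the authors' deposited table. The fork list had 1 lower gene, timeout at -0.35, among 19 autosomal ones in the authors' deposited table. Among 31 autosomal cyclins and cell cycle regulators, the mitotic inhibitor kinase gene Wee1 was higher at 0.45, and the Cdc25 phosphatase gene stg and the transcription factor gene E2f1 were lower at -0.31 and -0.23, in the authors' deposited table. With recentred values the list had 0 higher and 4 lower, and Wee1 was no longer called (adjusted p = 0.0832). X-linked Rbf and CycD, an inhibitor and an activator of cell cycle entry, fell by 0.47 and 0.49 in the authors' deposited table. Both values are near the median of all X-linked genes.

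Wing patterning genes leaned the other way from the housekeeping assemblies. Of 43 autosomal members 6 were lower, 0 higher and 9 above 0, with a median of -0.09, by the authors' deposited table, and 14 were lower with recentred values. The lower genes encode transcription factors, namely hth at -0.27, ap at -0.26, dve at -0.24, ab at -0.36 and the vein genes kni and knrl at -0.37 and -0.35, in the authors' deposited table. Of these hth, ap and knrl differed from their female values of 0.19, 0.08 and 0.16 (z test, adjusted p of 0.0115, 0.0456 and 0.0244). Wnt receptor genes moved the same way, with arr at -0.37, fz2 at -0.25 and fz at -0.21, in a list with 3 lower and 0 higher of 16 autosomal members in the authors' deposited table, and 6 lower with recentred values. The homeotic list had 3 lower of 21, hth among them with Antp at -0.22 and the Polycomb group gene Psc at -0.24, in the authors' deposited table. Beside these lists, 3.38% of all 7761 autosomal genes were lower and 6% higher, and 534 were lower with recentred values. Long autosomal genes leaned the same way, with 53 lower and 26 higher of the 497 over 30000 bases. Of the genes named here hth, ab, fz2 and Antp are that long, while ap, knrl, arr and Psc are shorter. The part of gene length in the lower calls of these lists was not tested.

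In other signalling lists the autosomal calls were few and depended on the centring. So did those of all 7761 genes of chromosomes 2 and 3, with 466 higher and 262 lower before recentring, and 266 and 534 after it. The EGF receptor list had 0 of 18, Dpp and TGF-beta 1 lower of 19 (magu at -0.32), Hedgehog 1 higher of 13 (cos at 0.28) and Hippo 1 higher of 13 (Diap1), in the authors' deposited table. In the Notch list the Bearded family genes Tom and Brd were higher at 0.81 and 0.51 and the coactivator gene mam lower at -0.33, of 24 autosomal members, in the authors' deposited table. X-linked members called lower included Mer at -0.79 and jub at -0.53 in the Hippo list, Raf at -0.62 in the EGF receptor list, Smox at -0.52 in the TGF-beta list and dsh at -0.43 in the Wnt list, in the authors' deposited table. With recentred values the autosomal counts were 3 lower in the EGF receptor list, 4 lower in Dpp and TGF-beta, 0 higher and 2 lower in Hedgehog, 1 higher and 2 lower in Hippo, and 2 higher and 4 lower in Notch. Sex determination genes had the X-linked Sxl and snf at -0.59 and -0.36 and the autosomal dsx and dpn at -0.25 and -0.48 in the authors' deposited table.

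Among markers of other larval tissues that can stay attached to a dissected disc, those of the fat body had the most lower calls. Fat body markers had 2 higher and 5 lower of 15 autosomal members, beside 6% and 3.38% of all genes of chromosomes 2 and 3, by the authors' deposited table. Their median was -0.69, with values between -2.79 for the storage protein gene Lsp1gamma and 1.41 for Apoltp, in the authors' deposited table. Both X-linked fat body markers were lower, Lsp1alpha at -2.88 and regucalcin at -0.73, in the authors' deposited table. The 6 salivary gland glue genes were all below 0 with a median of -3.04 and 0 calls, and 14 autosomal hemocyte markers had a median of -0.56 and 0 calls, in the authors' deposited table. The tables give no expression level, so the defining markers cannot be placed as near 0 or above, and the part of carried-over tissue in the results was not tested. Muscle precursor markers had 2 lower of 19 autosomal members (Ama at -0.41, Mlc2 at -1.37) and tracheal markers 1 lower of 16 (kkv at -0.28) in the authors' deposited table. These counts were 5 and 4 with recentred values. Recentring also raised the lower calls of chromosomes 2 and 3 from 262 to 534 of 7761 genes. Male germline markers had 0 calls among 8 in the authors' deposited table.

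Neuronal markers were the tissue list with most higher genes. Of 24 autosomal members 7 were higher and 1 lower (beside 6% and 3.38% of all genes of chromosomes 2 and 3), with a median of 0.53, by the authors' deposited table. Beside ple and unc-13 these were the synaptic genes Snap25 at 2.14 and brp at 1.66, nrv3 at 0.35, and the dopamine transporter gene DAT and the receptor gene TkR86C at 7.04 and 6.27, in the authors' deposited table. The values of DAT and TkR86C were imprecise, with recovered standard errors of 2.19 and 2.14. The secretory vesicle gene Cadps was lower at -0.75 in the authors' deposited table. X-linked cac and elav fell, so the list did not move in 1 direction.

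**Figure D4:**
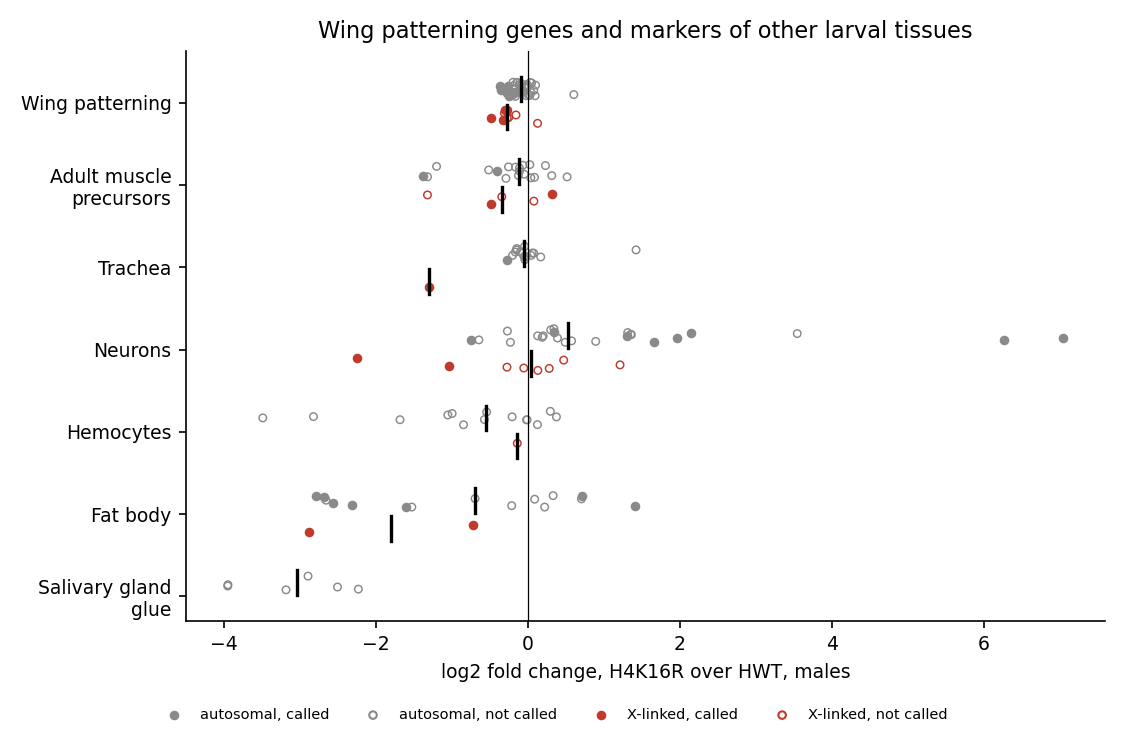
Male log2 fold change (H4K16R over HWT) of wing patterning genes and of markers of 6 other larval tissues, autosomal genes in grey (chromosome 4 included) and X-linked genes in red, filled where the adjusted p was under 0.05, with black bars at the medians. Autosomal medians run from 0.53 for neurons over -0.09 for wing patterning to -3.04 for the glue genes, of which 0 of 6 were called.

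Metabolic and detoxification genes gave a few large values. In glycolysis 5 of 21 autosomal genes were higher and 0 lower, beside 6% and 3.38% of all genes of chromosomes 2 and 3, by the authors' deposited table. Lactate dehydrogenase (Ldh) had 2.74, Pglym78 0.51, Pgi 0.43, PyK 0.39 and glycogen phosphorylase (Glyp) 0.35 in the authors' deposited table. With recentred values 3 were higher and 2 lower, and Ldh and Glyp were no longer called (adjusted p of 0.0517 and 0.0815). X-linked Gapdh2 fell by 0.55 in the authors' deposited table. Among glutathione S-transferases GstE6 was the 1 autosomal call of 22, at 3.12, and the X-linked GstT3 and GstT4 fell by 1.90 and 1.12, in the authors' deposited table. Cytochrome P450 genes had 1 higher (Cyp6d2) and 2 lower (Cyp4e2 at -1.31, Cyp310a1 at -0.95) of 27 autosomal members in the authors' deposited table. Ecdysone response genes had ImpL2 at 0.71 and Ldh higher and the receptor gene EcR at -0.26, Eip74EF at -0.26 and Hr39 at -0.29 lower, of 22 autosomal members, in the authors' deposited table.

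Cuticle and sensory receptor genes had few calls over wide values. Of 39 autosomal cuticle protein genes 4 were higher and 2 lower, beside 6% and 3.38% of all genes of chromosomes 2 and 3, by the authors' deposited table. Among them were Cpr56F at 2.33, Cpr64Ac at 2.27, Cpr49Ah at -0.69 and Vajk2 at -0.68 in the authors' deposited table. Of 40 autosomal odorant, gustatory, ionotropic and related receptor genes 4 were higher and 0 lower, beside the same shares, by the authors' deposited table. They were Ir40a at 3.52, Ir41a, Ir76a at 0.70 and the channel gene ppk17 at 6.13 in the authors' deposited table. The ppk17 value had a recovered standard error of 2.18.

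Few autosomal genes were called in females, whether or not they were called in males. Of 436 autosomal genes called higher in males and measured in both sexes, 228 (52.3%) were above 0 in females and 4 were called higher there, with a female median of 0.01, by the authors' deposited tables. Of 255 called lower in males, 105 (41.2%) were above 0 in females and 18 were called lower there, while the female table calls 22 higher and 46 lower of all 7154 autosomal genes measured in both sexes, in the authors' deposited tables. Of those 7154 genes, 48.8% were above 0 in females. A z test of the male minus female difference, which has its own HWT controls in each sex, called 176 autosomal genes higher (2.46%) and 114 lower (1.59%) in males, and 9 (0.613%) and 380 (25.9%) of 1469 X-linked genes. With each table recentred on chromosomes 2 and 3, the autosomal counts were 114 higher and 287 lower. The standard errors behind this test are upper limits where adjusted p-values tie, which by itself lowers the number of calls. They also rest on an assumed normal reference, so the direction of any error in the counts is not known.

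Genes called in both sexes numbered 35, of which 31 had the same sign, 24 lower and 7 higher, by the authors' deposited tables. Among them were CG4382 (1.12 in males, 0.80 in females), lncRNA:CR33938 (1.85 and 0.69), Cpr56F (2.33 and 2.51), the serpin gene Spn42De (-2.04 and -2.37), Gart (-0.48 and -0.57), which encodes an enzyme of purine synthesis, and the lysosomal gene Lamp1 (-0.37 and -1.04), in the authors' deposited tables. The 4 with opposite signs were Snap25, rdog, Cadps and stw, in the authors' deposited tables.

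**Figure D5:**
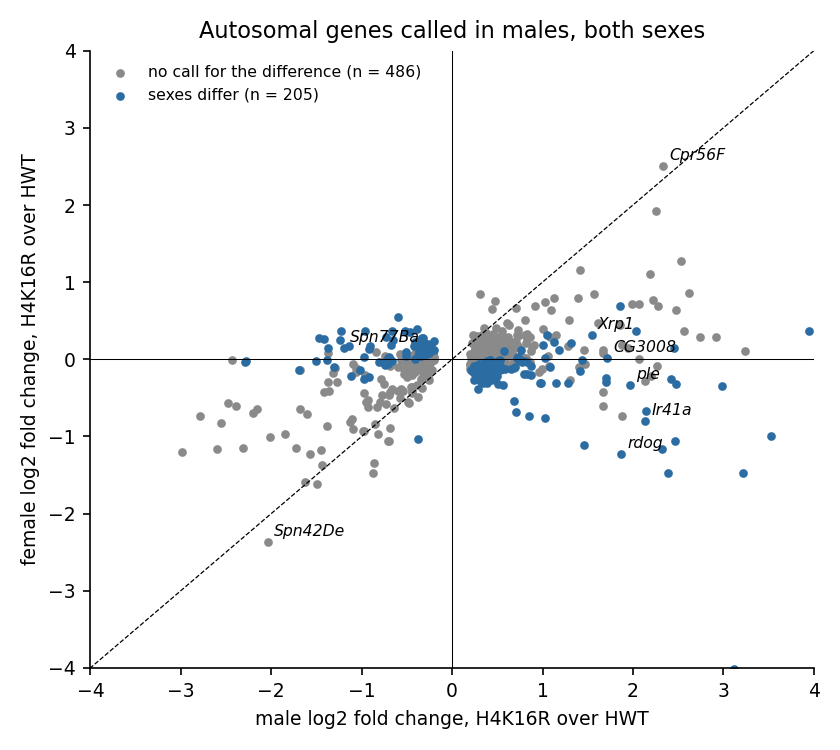
Female against male log2 fold change (H4K16R over HWT) for autosomal genes called in males and measured in both sexes, with genes whose male and female effects differed by the z test in blue (130 of the 436 higher and 75 of the 255 lower ones) and the others in grey, and equality as a dashed line. Most points lie along the horizontal axis near a female value of 0, while Cpr56F and Spn42De lie near the line of equality. The genes were picked by their male call alone, which favours larger values in males than in females. Outside the axes, which end at 4 in each direction, fall 5 genes.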

How the data were processed

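RNA of male HWT and H4K16R wing discs was sequenced from 3 libraries per genotype, grouped by the samples' titles and genotype labels. Build dm6, edgeR, limma, bedtools, SAMtools 1.6, Bowtie2 2.3.2, TopHat and Cufflinks 2.2.1 are listed in the submitters' processing notes, which give no roles. The male file holds, per the file headers, an edgeR log2 fold change with its adjusted p-value for each genomic interval. Counts, depth and values per library were not used here, so the precision of each value rests on the authors' adjusted p-value. The numerator and the adjustment method are not stated and were taken as H4K16R over HWT and Benjamini-Hochberg. The authors deposited male replication timing as a value for each genotype in 100 kb windows spaced by 10 kb, read as log2; the headers do not state the base.

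Entries were named by RefSeq genes of Release 6 with reciprocal overlap above 0.9, if exactly 1 gene matched; 6683 of 11505 entries overlap another, and so do those of 167 of the 307 genes named by the rule. Unadjusted p-values were recovered from adjusted p and rank, standard errors from the fold change and that p with a normal reference, and the sexes were compared by a z test with Benjamini-Hochberg adjustment over 8701 genes. These steps were tested on simulated data. Each gene was given the timing window whose middle was nearest its own. Named genes are the 15 higher and 15 lower genes of chromosomes 2, 3 and 4 with the smallest adjusted p, X-linked genes called higher (up to 15), the 10 lower X-linked genes with the smallest adjusted p, called members of 51 gene lists (up to 6 per direction; without a call, the member with the smallest adjusted p), the MSL genes, His4r, Xrp1 and p53, called genes of chromosome 4 and the Y, and the 5 genes per direction on chromosomes 2 and 3 with the smallest p between the sexes. NetA, NetB, mamo, if, vg, nub, wg, upd2, Sirt4, Stat92E, Spn42De, Gart and Lamp1 fall outside it and were named after their values were seen or as tissue markers. The members, the lists and the rule were chosen with earlier results of these data known. Alternatives were other thresholds, a minimum fold change, Holm adjustment, joined loci, other naming and other centring. The software was matplotlib 3.10.9, scipy 1.17.1, pandas 2.3.3, numpy 2.4.6 and Python 3.11.15.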

Additional observations from a re-analysis of the deposited data

Results flagged for a closer look

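The H4K16R effect differed between males and females at 176 autosomal genes with a higher and 114 with a lower male effect, and at 9 X-linked genes with a higher and 380 with a lower one (z test of the difference of the log2 fold changes in the authors' deposited tables, adjusted p under 0.05).

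On chromosomes 2 and 3 the genes with the smallest p for a higher male effect were ple, Ir41a, rdog, CG3008 and sick, with male minus female differences of 2.304, 2.93, 3.09, 1.70 and 1.45 on the log2 scale, computed from the authors' deposited tables. For a lower male effect they were Spn77Ba, CG15905, Nep2, asRNA:CR43481 and stw, which encodes a laccase of the cuticle, with differences of -1.34, -1.74, -1.52, -0.91 and -1.15. Of these 10 genes, rdog (1.87 in males, -1.23 in females) and stw (-0.60 and 0.55) were called in both sexes with opposite signs in the authors' deposited tables. The sick entry overlaps 12 others.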

How the results depend on the processing

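Calls at an adjusted p under 0.01 numbered 301 higher entries in all, 272 higher and 165 lower on the large autosomes. With an absolute log2 fold change of at least 0.5 there were 319 higher and 661 lower entries in all, 282 and 155 on the large autosomes, and 498 lower on the X. Holm adjustment left 76 higher and 202 lower in all, 60 and 27 on the large autosomes, and 9 and 174 on the X. Recentring on the large autosomes, chosen after seeing the data, gave 387 higher in all and 351 higher and 649 lower on them. Higher X-linked entries numbered 13 with overlapping entries joined and 14 with named entries alone. The comparison of the sexes on the large autosomes called 291 higher and 195 lower with a t reference of 4 degrees of freedom, and 114 and 287 with each table recentred. When recentred or restricted to named entries, the medians over all entries, the large autosomes and the X moved by less than 0.184. That value is the median recovered standard error of 1 entry, not the error of a median. For recentring the outcome was fixed beforehand, since it takes the same 0.0764 from every entry and sets the autosomal median to 0. Of 98 list medians 47 moved by more than 0.184 when taken relative to the median of their chromosome class. That count was fixed beforehand, as the class medians were -0.44 on the X and 0.08 on the large autosomes. It does not test the lists. With genes named by a reciprocal overlap above 0.5, 5 list medians moved by more than 0.184. Of 297 called genes named by the rule, 206 passed at 0.01 and 67 by Holm. The mean level, depth and spread of each gene are unknown, so low genes with large values cannot be told from others. No paired analysis was possible because the files give no value per library; leaving out replicates, another normalization and a filter on low counts were not run for the same reason, and the promoter motif search was not run because no promoter sequence was at hand.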

Other observations

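Small nucleolar RNA genes, many of them in introns of host genes, had shares of calls near those of all genes. Of 27 X-linked ones 14 were lower (beside 47% of all X-linked genes) with a median of -0.34, and of 197 on chromosomes 2 and 3, 9 were higher and 2 lower (beside 6% and 3.38% of all) with a median of 0.13, by the authors' deposited table. The 6 X-linked members of the family snoRNA:Psi28S-1135a to snoRNA:Psi28S-1135f had values between -0.52 and -0.35 in the authors' deposited table. All 6 entries lie inside that of the ribosomal protein gene RpS5a, which had -0.41, and share its reads. Of 322 long noncoding RNA genes on chromosomes 2 and 3, 13 were higher and 7 lower, and of 47 on the X, 2 and 11, shares below those of all genes except for the higher X-linked ones, in the authors' deposited table.

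On chromosome 4, the small autosome that is rich in heterochromatin, 4 of 86 named genes were higher and 10 lower, with a median of -0.04, by the authors' deposited table. Beside unc-13 and both antisense genes inside it, the higher one was the eye selector gene toy at 4.62, and the lower ones included the lipoprotein gene apolpp at -2.69, the activin-like ligand gene mav at -0.54 and the DNA glycosylase gene Tdg at -0.26, in the authors' deposited table. On the Y 4 of 8 named genes were higher, 3 of them repeated Suppressor of Stellate genes at 3.94, 4.12 and 5.25, whose near-identical copies make the values uncertain, and FDY at 3.43, in the authors' deposited table. In the piRNA pathway, which uses Suppressor of Stellate RNAs in the testis, the helicase gene spn-E was higher at 0.88 and AGO3 lower at -0.33 of 20 autosomal members in the authors' deposited table.

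Called autosomal genes had called neighbours more often than the background, by the larger margin among lower genes. The next gene without overlap was also higher for 38 of 466 higher genes (8.15%, beside 6% of all), and also lower for 18 of 262 lower genes (6.87%, beside 3.38%), in the authors' deposited table. These differences were not tested. Of the higher genes 50.2% and of the lower ones 55.0% overlap another entry, and overlapping genes can share the same next gene.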
